A study of Mus musculus with 10 samples.

Results

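The nuclear genes that encode the subunits of respiratory chain complexes I to IV were followed in SmoM2-expressing mouse skin cells with Survivin loss of function (LOF), Survivin gain of function (GOF) or unaltered Survivin. The genes were taken by symbol. Symbols that begin with Ndufa, Ndufb, Ndufc, Ndufs or Ndufv and a digit, the symbols Sdha to Sdhd and Cyc1, and symbols that begin with Uqcr, Cox4i, Cox5, Cox6, Cox7 or Cox8 were kept, and names with -ps were left out. This gave 68 of the 49671 genes in the table, with 37 in complex I, 4 in complex II, 9 in complex III and 18 in complex IV. Complexes were assigned by symbol in all counts, shares and figures. Ndufa4, since assigned to complex IV, is therefore counted in complex I, and Cox7a2l, which joins complexes III and IV, in complex IV. The rule uses symbols alone, and the set was proposed with earlier results of these data known.

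Complexes I and II feed electrons from NADH and succinate into ubiquinone, complex III passes them to cytochrome c, and complex IV hands them to oxygen. Complexes I, III and IV pump protons across the inner mitochondrial membrane, and ATP synthase uses the resulting gradient. A small set of subunits is encoded in mitochondrial DNA, and the others are imported from the cytosol, so that assembly draws on both genomes. Nuclear respiratory factor 1 (NRF1), the ETS factor GABP, YY1 and the oestrogen-related receptors are known regulators of the nuclear genes, and several complex IV subunits have isoforms restricted to muscle, testis or lung.

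The series asked what part Survivin, the product of Birc5, plays when basal cell carcinoma forms. All cells carried Rosa-SmoM2, a constitutively active Smoothened joined to yellow fluorescent protein, and were sorted for that protein, so the controls carried the oncogene too. There were 5 groups of 2 libraries. The LOF group was Krt14-CREER/Rosa-SmoM2 with Survivin LOF at 6 weeks. The GOF group was Inv-CREER/Rosa-SmoM2 with Krt14rtTA and Survivin-GOF at 8 weeks. The remaining groups were Krt14-CREER/Rosa-SmoM2 at 8 weeks, Krt14-CREER/Rosa-SmoM2 at 6 weeks and Inv-CREER/Rosa-SmoM2 at 8 weeks. The Krt14 promoter is active in basal keratinocytes and the involucrin (Inv) promoter in differentiating ones. Weeks follow TAM in the labels, read here as tamoxifen, and are not the age of the mice, which the labels do not give. Krt14rtTA is not in the label of the Inv controls, so its presence and the Survivin GOF allele cannot be told apart. Both Inv control libraries are described as pools, and the labels do not say whether replicates came from separate animals. P-values therefore measure the spread between libraries, which may be technical, and no batch is given.

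Each library had between 7693167 and 8870758 reads behind its normalized counts, and a value of 6.76 to 7.80 normalized counts stood for 3 reads, taken as the detection floor. Replicates correlated at 0.957 (GOF) to 0.978 (Inv) over log2 values of all tested genes. Birc5 had 382 and 429 normalized counts in LOF libraries, against 961 and 1103 in Krt14 libraries at 6 weeks, and 7277 and 16384 in GOF libraries, against 237 and 265 in Inv libraries. All 7 keratinocyte markers were detected in all 10 libraries, with Krt5 between 61520 and 149229. Xist, the RNA of the inactive X chromosome, separated the groups as well. It stood at 30024 and 59594 in LOF libraries and at 7589 and 56185 in GOF libraries, against 51 to 194 in the 6 other libraries. The summed level of 4 Y-linked genes (Ddx3y, Eif2s3y, Kdm5d and Uty) was 3718 and 2445 in LOF libraries and 8487 and 2557 in GOF libraries, against 5675 to 8233 in the others. All 4 LOF and GOF libraries thus differed from their controls in Xist as well as in Survivin, and each result below on either group carries this difference.

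The 68 genes together took 0.297% and 0.294% of the summed normalized counts in LOF libraries and 0.300% and 0.285% in GOF libraries. The shares were 0.352% and 0.335% in Krt14 libraries at 8 weeks, 0.369% and 0.378% in Krt14 libraries at 6 weeks and 0.363% and 0.346% in Inv libraries. All 4 libraries with altered Survivin lay below all 6 with unaltered Survivin. Complex IV genes alone held 0.0668% and 0.0682% in LOF libraries and 0.0666% and 0.0683% in GOF libraries, against 0.0809% to 0.0925% in the other 6. For complex III the values were 0.0627% and 0.0628% in LOF, 0.0605% and 0.0579% in GOF and 0.0704% to 0.0896% in the others. Complex I genes held 0.137% to 0.150% in LOF and GOF libraries, against 0.154% to 0.174% in the others. For complex II the LOF and GOF libraries reached 0.02566%, just under the lowest of the others at 0.02574%. In these sorted bulk samples, fewer cells that express a gene and less RNA per cell cannot be told apart.

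**Figure D1:**
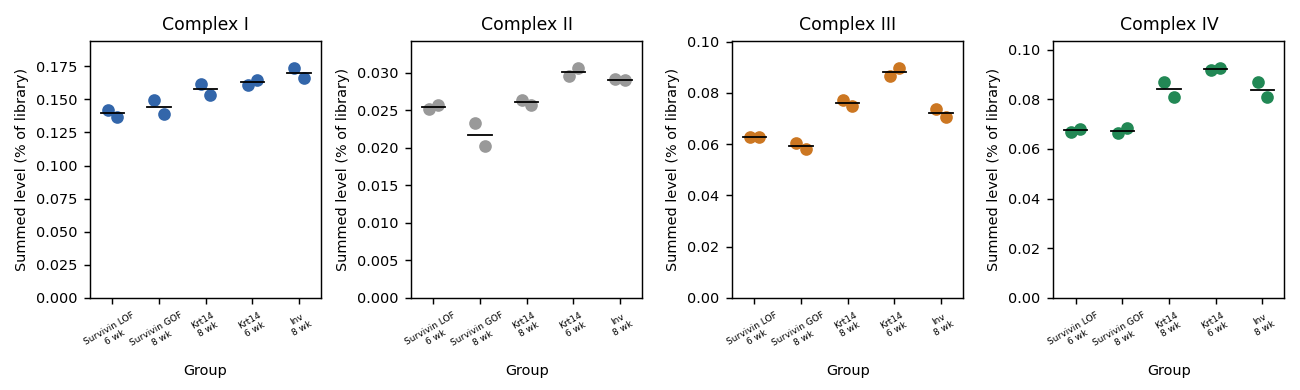
Summed normalized counts of the member genes of each complex as a percentage of all normalized counts in the library (y axis, from 0), by group (x axis); points are libraries and lines are group means. In each complex all LOF and GOF libraries sit below all others, in complex II by a narrow margin, and complex IV stays at or below 0.0683% in LOF and GOF libraries, against at least 0.0809% elsewhere.

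Levels differed widely between the genes. Per kilobase of the principal transcript, the mean level over the 10 libraries was 4684 normalized counts for Cox6c and 4280 for Cox4i1, both complex IV subunits, and 3436 for Uqcrh, the hinge subunit of complex III. Without the length correction, the highest means belonged to Uqcrc1, a core protein of complex III, at 4923, Cox4i1 at 3274 and Ndufa10, an accessory subunit of complex I, at 2572.5 normalized counts. At the other end, Cox6a2 (heart and muscle), Cox7b2 and Cox8c (testis) were listed at 0 in all 10 libraries. The lung isoform Cox4i2 lay between 3 and 12 normalized counts, the muscle isoform Cox8b between 0 and 11 and the muscle isoform Cox7a1 between 7 and 29. For Cox4i2 and Cox8b most values were at or near the floor, and no fold is read from them. The other 65 reached 10 normalized counts in 2 or more libraries and were tested together with all genes that met this filter, 21995 in all, by limma on log2(normalized count + 1), so that changes of low genes are understated. A gene was called higher or lower at a Benjamini-Hochberg adjusted p under 0.05 over all tested genes.

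**Figure D2:**
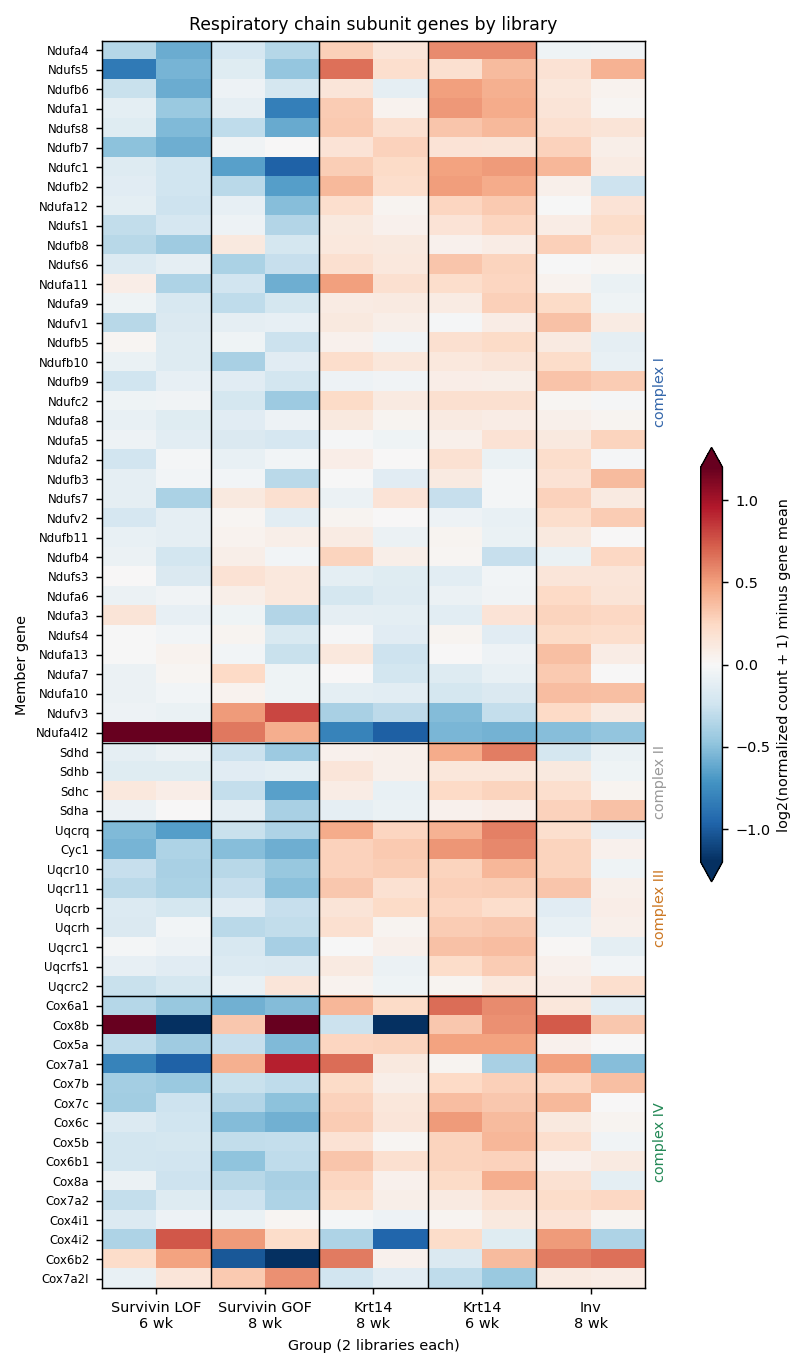
Log2(normalized count + 1) of tested member genes minus each gene's mean over the 10 libraries (colour; values beyond 1.2 in either direction share the end colours), with libraries in columns by group and genes in rows by complex, ordered within a complex by the LOF change. Most rows are blue in the LOF and GOF columns and red in the Krt14 6-week columns, with Ndufa4l2 running the other way and Cox8b, Cox7a1 and Cox4i2 varying between replicates.

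Survivin LOF against unaltered Survivin in the Krt14 driver at 6 weeks gave lower levels for many of these genes. Of the 65 tested, 32 were lower and 2 higher, and 31 were not called. Over all 21995 genes, 11.4% were lower, 19.5% were higher and 30.9% were called in either direction. The median log2 change was −0.37 over the member genes and 0.16 over all tested genes, and 54 of 65 members had a negative value. All 9 complex III genes were lower, as were 9 of 15 in complex IV, 13 of 37 in complex I and 1 of 4 in complex II. After rescaling by the median of ratios, the split over all genes moved to 3347 higher and 3482 lower, from 4294 and 2511 as deposited, and the members were then 1 higher and 40 lower.

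Complex III was the complex in which every gene was called. Uqcrq, the small ubiquinone-binding subunit, had 491 and 447 normalized counts in LOF libraries, against 946 and 1080 in Krt14 libraries (log2 change −1.11 ± 0.14 SE, adjusted p = 0.000262, limma). Cyc1, the cytochrome c1 that carries electrons to cytochrome c, had 608 and 695 in LOF libraries, against 1293 and 1341 in Krt14 libraries (−1.02 ± 0.12, adjusted p = 0.000157, limma). Groups did not overlap for either gene. Lack of overlap between 2 and 2 libraries, here and below, has a p of 0.333 in an exact permutation test. Its share over all tested genes was not counted. Uqcrc1 had 4785 and 4670, against 6220 and 6296 (log2 change −0.40), and the Rieske iron-sulphur protein Uqcrfs1 had 1492 and 1457, against 1863 and 1971 (−0.38). The smallest change in the complex, −0.32, was that of Uqcrc2 and was called with an adjusted p of 0.0466 (limma).

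In complex IV, Cox6a1, the widely expressed isoform of subunit 6A, had 793 and 733 normalized counts in LOF libraries, against 1605 and 1496 in Krt14 libraries (log2 change −1.02 ± 0.13, adjusted p = 0.000184, limma). Cox5a, a subunit that stabilises the core, had 987 and 909, against 1706 and 1705 (−0.85 ± 0.11, adjusted p = 0.000302, limma). Cox4i1, the widely expressed isoform of subunit 4, had 2919 and 3123, against 3344 and 3544, and was not called (−0.19, adjusted p = 0.152, limma). The LOF and Krt14 libraries did not overlap for any of these 3 genes, which adds no support for a change of the uncalled Cox4i1.

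In complex I most genes were not called. Among the accessory subunits, Ndufs5 had 124 and 152 normalized counts in LOF libraries, against 256 and 292 in Krt14 libraries (log2 change −0.99, adjusted p = 0.00620, limma). Ndufb6 had 380 and 303, against 645 and 615 (−0.89, adjusted p = 0.00175, limma), and Ndufa1 had 238 and 190, against 371 and 352 (−0.76, adjusted p = 0.0306, limma). Of 7 core subunits, which hold the flavin, the iron-sulphur clusters and the quinone site, 3 were lower and none was higher. The largest fall among them was that of Ndufs8, which carries iron-sulphur clusters, at 548 and 418 against 765 and 796 (−0.70, adjusted p = 0.00673, limma). Ndufs1 had 1462 and 1563, against 2012 and 2152 (−0.46). The flavin-binding Ndufv1 was not called (−0.29, adjusted p = 0.0727, limma). In complex II the called gene was Sdhd, a membrane anchor (−0.62), and the catalytic pair Sdha and Sdhb had changes of −0.10 and −0.28 that were not called.

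The 2 genes that rose in LOF libraries have particular roles. Ndufa4l2 (ENSMUSG00000040280, GRCm38 chr10:127514967-127517154, plus strand), whose product lowers complex I activity under hypoxia, had 1276 and 1085 normalized counts in LOF libraries, against 304 and 300 in Krt14 libraries (log2 change 1.96 ± 0.15, adjusted p = 9.42e-06, limma). Its relative Ndufa4 (ENSMUSG00000029632, chr6:11900292-11907497, minus strand), named as a complex I subunit and since assigned to complex IV, had 766 and 641 in LOF libraries, against 1434 and 1431 (−1.03 ± 0.12, adjusted p = 0.00015, limma). The pair moved in opposite directions with no overlap between groups. Cox7a2l, which joins complexes III and IV into supercomplexes, had 1611 and 1890, against 1391 and 1258 (0.40 ± 0.12, adjusted p = 0.0272, limma). Its call was lost after median-of-ratios rescaling (adjusted p = 0.157, limma) and without LOF replicate 2 (0.200) or Krt14 replicate 2 (0.174), and also without a filter (0.0512) and in a fit to these 4 libraries alone (0.0783).

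The count of 32 lower members moved with single libraries. It was 20 and 17 without LOF replicate 1 and 2, and 22 and 14 without Krt14 6-week replicate 1 and 2. Lower calls over all tested genes moved too, to 8.53%, 7.07%, 7.71% and 6.37% in the same order. With log2 Xist as a covariate, 0 members were lower and 1, Ndufa4l2, was higher, while the members' median was −0.07. In that fit the calls over all genes dropped to 591 higher and 350 lower. Its Xist slope comes only from differences between replicates of a group, widest in GOF (Xist at 7589 and 56185). The slope is then extended to a log2 Xist difference of 9.15 between LOF and Krt14 libraries. Lost calls in this fit are therefore not read as a result about the members. Xist was high in both LOF libraries and low in both controls. The labels do not give sex, and both LOF libraries also held Y-linked RNA (summed level 3718 and 2445). Xist, and with it any difference in sex, cannot be told apart from Survivin LOF here.

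Survivin GOF against the Inv control at 8 weeks also gave lower levels. Of 65 members, 17 were lower, 2 were higher and 46 were not called, beside 8.4% lower, 6.87% higher and 15.3% in either direction over all tested genes. The median log2 change was −0.33 over the members and −0.01 over all genes, and 57 of 65 values were negative. Lower genes made up 8 of 15 in complex IV, 3 of 9 in complex III, 2 of 4 in complex II and 4 of 37 in complex I.

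Ndufc1, an accessory subunit of complex I, had 318 and 255 normalized counts in GOF libraries, against 658 and 536 in Inv libraries (log2 change −1.06 ± 0.15, adjusted p = 0.00153, limma). Cyc1 had 630 and 598, against 1081 and 929 (−0.71 ± 0.12, adjusted p = 0.00389, limma). Cox6c had 1597 and 1534, against 2485 and 2340 (−0.62 ± 0.10, adjusted p = 0.00255, limma). In each of these the GOF libraries lay clear of the Inv libraries. Cox7b, Cox7c, Uqcr11 and Ndufs8 had changes between −0.63 and −0.59. Cox6b2, the testis isoform of subunit 6B, had 29 and 16, against 92 and 95 (−2.06 ± 0.37, adjusted p = 0.00480, limma), the largest fall among the tested members and one at low counts. Its widely expressed counterpart Cox6b1 had 551 and 624, against 797 and 827 (−0.47).

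Complex II differed in which subunits were called. Sdha, the flavoprotein that oxidises succinate, had 2100 and 1729 normalized counts in GOF libraries, against 2738 and 2897 in Inv libraries (log2 change −0.56, adjusted p = 0.00628, limma). Sdhc, a membrane anchor, had 741 and 575, against 1036 and 924 (−0.58, adjusted p = 0.0181, limma). The iron-sulphur subunit Sdhb had 1097 and 1113, against 1311 and 1161, and was not called (−0.16). Sdhd, the anchor called in the LOF comparison, was not called here (−0.21).

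The 2 genes called higher in GOF libraries were Ndufa4l2 and Ndufv3. Ndufa4l2 had 691 and 601 normalized counts in GOF libraries, against 312 and 321 in Inv libraries (log2 change 1.02 ± 0.15, adjusted p = 0.00141, limma). Ndufv3, a small accessory subunit of the NADH-oxidising module, had 873 and 1072, against 724 and 662 (0.48 ± 0.14, adjusted p = 0.0447, limma). Its call was lost without a filter, after median-of-ratios rescaling and without GOF replicate 2 or either Inv library, with adjusted p between 0.0529 and 0.233 (limma). Cox7a2l had 2133 and 2509, against 1848 and 1820, and was not called (0.33, adjusted p = 0.0857, limma).

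The GOF calls rest on the spread shared over all 5 groups. Fitted to the GOF and Inv libraries alone, no member was called in either direction, beside 46 higher and 212 lower over all genes. In the shared fit 41 members had an unadjusted p under 0.05 (limma). The share of all tested genes at that threshold was not counted, so the 41 have no background beside them. The count of 17 lower members was 29 and 11 without GOF replicate 1 and 2, and 5 and 7 without Inv replicate 1 and 2. Lower calls over all tested genes were 17.4%, 5.29%, 2.83% and 2.66% in the same order. The summed share of these genes was 0.300% in GOF replicate 1, with Xist at 7589, and 0.285% in GOF replicate 2, with Xist at 56185, against 0.363% and 0.346% in Inv libraries. With log2 Xist as a covariate, no member was called, the members' median was −0.04, and calls over all genes were 14 higher and 26 lower. The limit given for this fit in the LOF comparison holds here too, with a log2 Xist difference of 6.94. The Y-linked sum was 8487 in GOF replicate 1 and 2557 in GOF replicate 2, against 7706 and 8233 in Inv libraries. Xist was thus higher in both GOF libraries, while the Y-linked sum was lower in replicate 2 alone. The labels do not give sex, and the Xist difference and Survivin GOF cannot be told apart here.

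**Figure D3:**
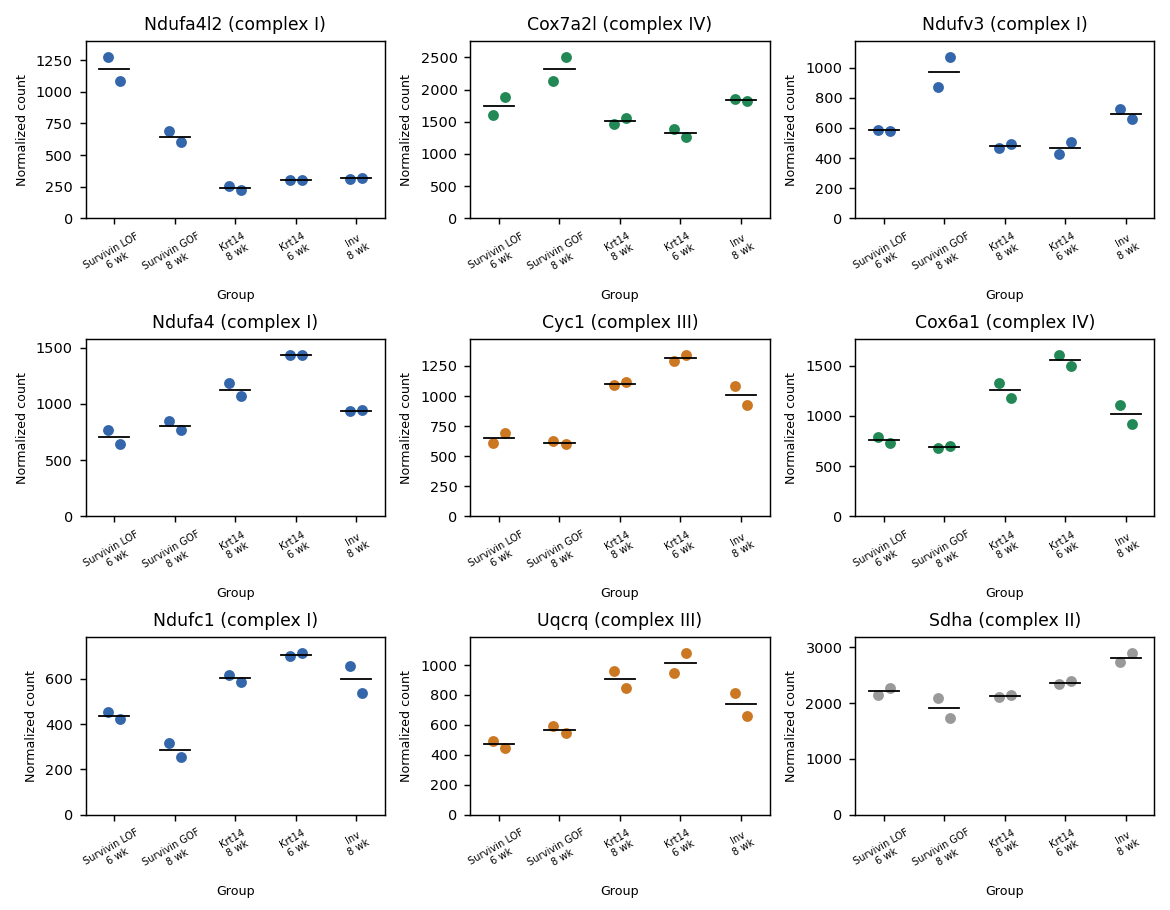
Normalized counts (y axes, from 0) of 9 member genes by group (x axes); points are libraries, lines are group means and colour marks the complex. Ndufa4l2 stands at 1085 to 1276 in LOF and at 601 to 691 in GOF libraries, against 225 to 321 elsewhere, while Cyc1 and Cox6a1 lie lower in all LOF and GOF libraries than in any other.

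The LOF and GOF comparisons share no library, so their calls can be set side by side. Of the lower members, 12 were lower in both, which is 37.5% of the 32 in LOF and 70.6% of the 17 in GOF. Over all tested genes the shared part was 16.4% of those lower in LOF and 22.2% of those lower in GOF. Members were also called lower more often in each comparison. The rates were 49.2% in LOF and 26.2% in GOF, against 11.4% and 8.4% of all tested genes. The shared parts are to be read against these rates and do not show that members overlap more than genes in general. The 12 were Cyc1, Uqcr10 and Uqcr11 of complex III, Cox5a, Cox6a1, Cox6b1, Cox6c, Cox7a2, Cox7b and Cox7c of complex IV, and Ndufc1 and Ndufs8 of complex I. No complex II gene was among them. Those lower in GOF alone were Cox6b2, Ndufa10, Ndufb9, Sdha and Sdhc, and whether their changes differ between the comparisons was not tested. No member was called in opposite directions, where 314 of all tested genes were lower in LOF and higher in GOF and 453 were higher in LOF and lower in GOF. Across genes, the log2 changes of the 2 comparisons had a Spearman correlation of 0.41 over the 65 members and −0.02 over all tested genes. Genes are not independent replicates, the libraries behind each point are the same, and both comparisons set libraries with high Xist against libraries with low Xist.

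**Figure D4:**
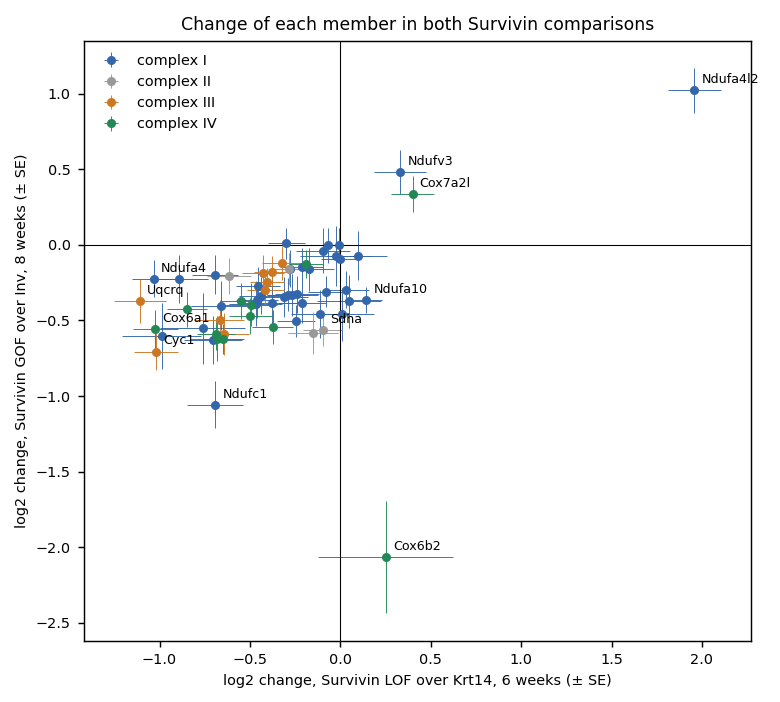
Log2 change of each member gene with a mean of at least 50 normalized counts in Survivin LOF over the Krt14 control at 6 weeks (x axis) and in Survivin GOF over the Inv control at 8 weeks (y axis), with standard errors; colour marks the complex. Most points lie in the lower left, Ndufa4l2 stands alone at 1.96 and 1.02, and Cox6b2 lies far down on the GOF axis at −2.06 but near 0.25 on the LOF axis.

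The shares within some pairs of related genes also differed between groups. Per kilobase of principal transcript, Ndufa4l2 made up 52.1% and 52.5% of the summed level of Ndufa4l2 and Ndufa4 in LOF libraries and 34.8% and 33.9% in GOF libraries. It made up 12.3% and 12.1% in Krt14 libraries at 8 weeks, 12.2% and 12.0% in Krt14 libraries at 6 weeks and 17.9% and 18.2% in Inv libraries. Replicates of a group lay close together, and the LOF and GOF values lay above all others. Cox7a2l made up 54.3% and 56.0% of its sum with Cox7a2 in LOF libraries, 60.5% and 66.2% in GOF libraries, 43.0% and 47.3% in Krt14 libraries at 8 weeks, 43.7% and 40.0% in Krt14 libraries at 6 weeks and 48.9% and 48.1% in Inv libraries. Cox6b2 made up 10.1% and 11.9% of its sum with Cox6b1 in LOF libraries, 5.27% and 2.64% in GOF libraries, 9.18% and 6.94% in Krt14 libraries at 8 weeks, 5.71% and 8.10% in Krt14 libraries at 6 weeks and 10.9% and 10.8% in Inv libraries. Cox7a1 stayed below 5.83% of its sum with Cox7a2 and Cox4i2 below 0.40% of its sum with Cox4i1 in all 10 libraries.

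Ndufa4l2 and Cox4i2 are also expressed by pericytes, and the pericyte markers Rgs5 and Higd1b were between 0 and 7 normalized counts in every library. The 11 pericyte and smooth muscle markers summed to 8513 and 8319 in LOF libraries, against 6866 and 6363 in Krt14 libraries at 6 weeks, and to 7625 and 7120 in GOF libraries, against 7329 and 6350 in Inv libraries. Most of the sum was Cspg4, at 4293 to 6759. Kcnj8 had 142 and 136 normalized counts in LOF libraries, against 39 and 31 in Krt14 libraries at 6 weeks, and Abcc9 had 43 and 93, against 12 and 13, and both were called higher. In the LOF comparison 4 of the 9 tested markers were higher and 1 lower, and in the GOF comparison 0 were higher and 1 lower. Over all tested genes, 19.5% were higher and 11.4% lower in LOF, and 6.87% higher and 8.4% lower in GOF. The part of such cells in the Ndufa4l2 change was not tested.

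Promoters are shown for 3 of the genes lower in both comparisons and for the 2 genes that rose beside Ndufa4l2, because the known regulators named above act there. RefSeq sequences for GRCm38.p6 covered 53 of the 68 genes and run from 250 bases before to 50 bases after the start, 5′ to 3′ on the gene's strand. Capitals mark matches, on either strand, to NRF1 (GCGCA, any base, GCGC), ETS (CCGGAAG), YY1 (AAGATGG), the oestrogen-related receptor half-site, abbreviated ERR (AAGGTCA), and the core of the hypoxia response element (ACGTG). None of the matches shown overlaps another. The windows are chr5:115348909-115349208 (minus strand) for Cox6a1, chr10:80406772-80407071 (minus) for Uqcr11, chr19:3912725-3913024 (minus) for Ndufs8, chr17:31519865-31520164 (plus) for Ndufv3 and chr17:83514284-83514583 (minus) for Cox7a2l. The RefSeq start used for Cox7a2l lies inside the gene as GENCODE annotates it, whose 5′ end is at 83517330, so promoter sequence at that end is not covered.
Cox6a1: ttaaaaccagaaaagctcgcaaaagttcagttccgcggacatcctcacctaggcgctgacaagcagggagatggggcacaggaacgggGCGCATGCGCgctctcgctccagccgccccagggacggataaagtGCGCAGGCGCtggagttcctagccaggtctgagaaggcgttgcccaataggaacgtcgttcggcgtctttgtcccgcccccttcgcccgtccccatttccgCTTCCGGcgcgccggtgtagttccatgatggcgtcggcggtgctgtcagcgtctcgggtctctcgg
Uqcr11: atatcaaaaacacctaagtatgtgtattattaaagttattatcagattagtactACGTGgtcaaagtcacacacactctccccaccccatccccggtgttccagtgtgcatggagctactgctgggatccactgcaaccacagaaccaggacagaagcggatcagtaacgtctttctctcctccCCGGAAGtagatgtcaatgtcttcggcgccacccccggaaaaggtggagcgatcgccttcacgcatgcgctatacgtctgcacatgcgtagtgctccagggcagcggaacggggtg
Ndufs8: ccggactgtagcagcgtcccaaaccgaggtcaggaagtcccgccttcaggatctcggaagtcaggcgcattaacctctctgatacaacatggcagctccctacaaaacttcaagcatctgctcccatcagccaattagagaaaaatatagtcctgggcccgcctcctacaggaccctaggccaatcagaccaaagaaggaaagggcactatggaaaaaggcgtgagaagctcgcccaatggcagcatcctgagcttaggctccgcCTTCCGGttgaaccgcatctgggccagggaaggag
Ndufv3: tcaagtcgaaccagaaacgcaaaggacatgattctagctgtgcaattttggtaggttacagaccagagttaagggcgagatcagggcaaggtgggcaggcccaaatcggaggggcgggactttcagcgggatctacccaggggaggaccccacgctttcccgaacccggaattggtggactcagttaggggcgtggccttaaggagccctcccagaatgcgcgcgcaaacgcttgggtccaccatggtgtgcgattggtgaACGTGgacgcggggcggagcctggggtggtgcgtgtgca
Cox7a2l: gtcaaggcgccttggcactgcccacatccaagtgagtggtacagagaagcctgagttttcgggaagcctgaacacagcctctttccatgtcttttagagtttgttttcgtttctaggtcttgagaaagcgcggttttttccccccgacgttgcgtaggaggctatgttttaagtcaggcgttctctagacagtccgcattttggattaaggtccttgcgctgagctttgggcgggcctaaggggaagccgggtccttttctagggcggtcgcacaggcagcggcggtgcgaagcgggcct
Cox6a1 holds 2 NRF1 matches, beginning 162 and 117 bases before the start, and 1 ETS match. Uqcr11 and Ndufs8 each hold 1 ETS match, Uqcr11 and Ndufv3 each hold 1 hypoxia core, and Cox7a2l holds no match to these letters in this window. The 3 examples lower in both comparisons thus all hold an ETS match and do not stand for the shared set. Of the other shared genes with a sequence, Cox6b1 holds 1 ETS match, and Cox5a, Cox7a2, Cox7b, Cox7c, Ndufc1 and Uqcr10 hold none.

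Over the 53 promoters, the NRF1 letters were found in 20.8%, against 9.12% of 12254 promoters of tested genes and 4.78% of all 27025 promoters. The YY1 letters were found in 15.1%, against 6.71% of tested and 6.48% of all, and the ERR letters in 7.55%, against 3.31% and 4.66%. The hypoxia core was found in 20.8%, against 24.3% and 19.7%. The ETS letters were found in 20.8%, against 16.0% and 9.12%. ETS matches were uneven within the set, in 9 of 25 promoters of genes lower in LOF and 2 of 28 of the others, whereas NRF1 matches were in 5 of 25 and 6 of 28. These are descriptions of letters, and no difference between shares was tested.

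The Krt14 driver at 8 weeks was compared with the Inv driver at the same time, both with unaltered Survivin. Of 65 members, 5 were lower, 0 were higher and 60 were not called, where 11.4% of all tested genes were lower, 8.18% higher and 19.6% called in either direction. Median log2 changes were 0.01 for the members and −0.10 for all genes. The member share is thus below the background. With limma, 12 members had an unadjusted p under 0.05, for which the share over all tested genes was not counted. Limma-voom on recovered reads also called 0 higher.

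The 5 were 4 complex I genes and Sdha. Ndufv3 had 468 and 493 normalized counts in Krt14 libraries, against 724 and 662 in Inv libraries (log2 change −0.53, adjusted p = 0.0250, limma). Ndufa10 had 2353 and 2341, against 3284 and 3272 (−0.48 ± 0.09, adjusted p = 0.00292, limma), with close replicates in both groups. Sdha had 2103 and 2148, against 2738 and 2897 (−0.41, adjusted p = 0.0222, limma). Ndufa6 and Ndufb9, both accessory subunits, had changes of −0.38 and −0.37. The split was 2 higher and 1 lower after median-of-ratios rescaling and 1 higher and 3 lower after quantile normalization, and 1 member was lower when any 1 of the 4 libraries was left out.

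Krt14 libraries at 8 weeks were also set against those at 6 weeks. With limma 0 of the 65 members were called in either direction, where 4.02% of all tested genes were higher, 0.855% lower and 4.88% called. An unadjusted p under 0.05 (limma) was found for 8 members, and its share over all tested genes was not counted. The median log2 change was −0.11 for the members and 0.14 for all genes. Ndufa4 had 1183 and 1069 normalized counts at 8 weeks, against 1434 and 1431 at 6 weeks (−0.35, adjusted p = 0.130, limma). Limma-voom on recovered reads called 0 higher and 0 lower, and median-of-ratios rescaling gave 0 higher and 3 lower. This comparison shares its libraries with those above.

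GOF libraries were last compared with Krt14 libraries at 8 weeks, which differ in driver, Krt14rtTA and Survivin at once. Of 65 members, 28 were lower, 3 were higher and 34 were not called, where 12.5% of all genes were lower, 15.2% higher and 27.7% called. Median log2 changes were −0.24 for the members and 0.09 for all genes. Lower genes were 10 of 15 in complex IV, 7 of 9 in complex III, 2 of 4 in complex II and 9 of 37 in complex I. The GOF libraries are those of the comparison with the Inv control, so the results are not separate evidence.

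Among the falls, Cox6a1 had 676 and 702 normalized counts in GOF libraries, against 1331 and 1181 in Krt14 libraries (log2 change −0.86 ± 0.13, adjusted p = 0.000611, limma). Ndufb2 had 419 and 331, against 688 and 610 (−0.80, adjusted p = 0.00433, limma). Cox6b2, Ndufc1, Cyc1, Cox6c, Ndufa11 and Ndufs5 had changes between −1.77 and −0.74. The 3 genes higher were Ndufa4l2 at 691 and 601 against 255 and 225 (1.42 ± 0.15, adjusted p = 7.65e-05, limma), Ndufv3 at 873 and 1072 against 468 and 493 (1.01 ± 0.14, adjusted p = 0.000536, limma) and Cox7a2l at 2133 and 2509 against 1460 and 1559 (0.62 ± 0.12, adjusted p = 0.00345, limma). The count of lower genes was 8 in a fit to these 4 libraries alone and 0 with log2 Xist as a covariate. Lower calls over all tested genes fell too, to 6.01% and 0.523% in the same order. With any 1 of the 4 libraries left out, the members' median log2 change lay between −0.31 and −0.22. The median over all tested genes then lay between 0.03 and 0.15.

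Of the 65 tested members, 44 were called in at least 1 of the 5 comparisons and 21 in none. The same count over all tested genes was not made, so these numbers have no background beside them. Single comparisons called 4.88% to 30.9% of all tested genes. Those called in none were 16 genes of complex I, 1 of complex II and 4 of complex IV, while every complex III gene was called at least once. The complex IV genes were Cox4i1 and the low isoforms Cox4i2, Cox7a1 and Cox8b. Ndufb11 had the narrowest relative spread of the 21, from 857 to 999 normalized counts over the 10 libraries (median 933). Ndufa8, an accessory subunit of complex I, ran from 515 to 620 (median 583.5), Sdhb from 1088 to 1335 (median 1208) and Cox4i1 from 2919 to 3673 (median 3277). Ndufs3, a core subunit of complex I, ran from 871 to 1104 (median 969). The widest relative spread among the complex I genes called in none was that of Ndufb3, from 292 to 475 (median 358). A member that was not called is not shown to be unchanged.

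The member genes on the X chromosome are Ndufa1, Ndufb11 and Cox7b. Ndufb11, an accessory subunit of complex I, had 870 and 857 normalized counts in LOF libraries, against 942 and 871 in Krt14 libraries at 6 weeks, and 948 and 970 in GOF libraries, against 999 and 924 in Inv libraries, and was not called in either comparison. Cox7b had 954 and 929 in LOF libraries, against 1491 and 1547 (log2 change −0.69), and 1051 and 1027 in GOF libraries, against 1504 and 1624 (−0.59). Ndufa1 had 239 and 146 in GOF libraries, against 287 and 262 (−0.55, adjusted p = 0.143, limma). None of the 3 was called higher in the LOF or GOF libraries.

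Most of these transcripts are short, and short transcripts in general moved with the groups. In the LOF comparison, the median log2 change over all 316 tested coding genes with a principal transcript of up to 600 bases was −0.08, and over the 10600 above 2000 bases it was 0.18. The members had medians of −0.46 (18 genes up to 600 bases), −0.26 (22 genes above 600 and up to 1000), −0.31 (20 genes above 1000 and up to 2000) and −0.15 (5 genes above 2000). Each lay below that of all coding genes of its length class. In the GOF comparison the member medians in the same order were −0.39, −0.30, −0.27 and −0.40, against −0.11, −0.10, −0.07 and −0.01 for all coding genes. Of coding genes up to 600 bases, 24.4% were lower in LOF and 14.6% in GOF, beside 10 and 6 of the 18 members.

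**Figure D5:**
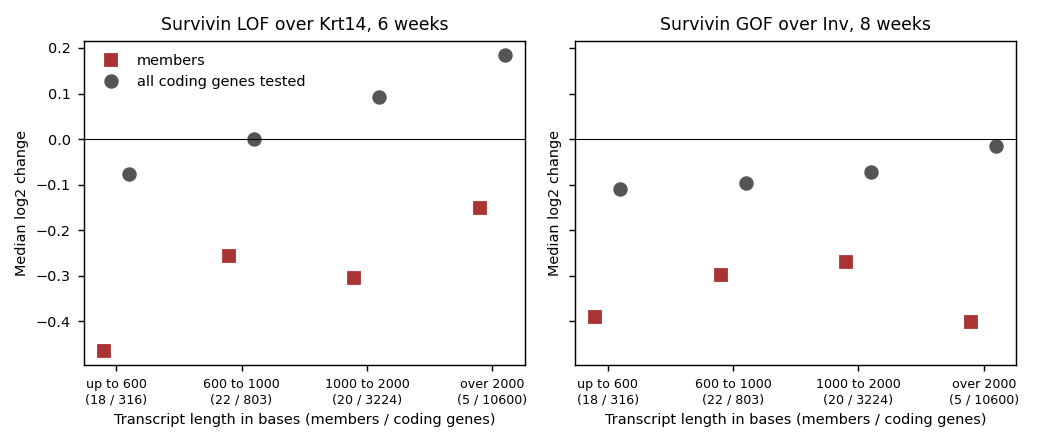
Median log2 change (y axes) of member genes (squares) and of all tested coding genes (circles) by length of the principal transcript (x axes, with the number of genes in each class) for the LOF and GOF comparisons. In every class the member median lies below that of all coding genes, and the class above 2000 bases holds 5 members.

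Genes that work with the respiratory chain were counted from lists, beside shares over all tested genes of 11.4% lower and 19.5% higher in LOF and 8.4% lower and 6.87% higher in GOF. Of 18 ATP synthase genes, 11 were lower and 0 higher in LOF, and 10 were lower and 0 higher in GOF against Inv. Atp5o, a stalk subunit, changed by −0.72 and Atp5b, the catalytic beta subunit, by −0.55 in LOF, and Atp5g3, a subunit of the rotor ring, by −0.61 in LOF and −0.70 in GOF. Atpif1, the inhibitor of ATP hydrolysis, changed by −1.02 in GOF. Cytochrome c itself, Cycs, had 501 and 524 normalized counts in LOF libraries, against 1199 and 1181 in Krt14 libraries (log2 change −1.21), and 347 and 255 in GOF libraries, against 560 and 649 in Inv libraries (−1.02). With Cycs, 2 of 7 electron carriers and entry enzymes were lower and 1 higher in LOF, and 3 were lower and 0 higher in GOF, where Etfa and Etfb, which pass electrons from fatty acid oxidation, changed by −0.72 and −0.74.

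The 13 subunits encoded in mitochondrial DNA had 0 calls in LOF with limma and 1 in GOF, where mt-Nd1 had 52560 and 40208 normalized counts in GOF libraries, against 60123 and 75006 in Inv libraries (log2 change −0.55, adjusted p = 0.0250, limma). Their medians were −0.15 in LOF and 0.06 in GOF. Of the 13, mt-Nd3, mt-Nd4l, mt-Co2, mt-Co3, mt-Atp6 and mt-Atp8 were listed between 0 and 312, while the others stood between 17528 and 138762. The low ones may share reads with near-identical nuclear copies, which was not tested, and are uncertain. Together the 13 took 1.63% and 1.55% of LOF libraries, against 1.85% and 1.63% of Krt14 libraries at 6 weeks, and 2.15% and 1.89% of GOF libraries, against 1.88% and 2.25% of Inv libraries. The GOF and Inv ranges overlap, and the LOF and Krt14 ranges lie next to each other.

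Other mitochondrial lists were mixed. Of 48 assembly factors, 6 were lower and 4 higher in LOF, and 8 lower and 1 higher in GOF, where the shares over all tested genes were 11.4% lower and 19.5% higher in LOF and 8.4% and 6.87% in GOF. The lower share in LOF is near the background. Uqcc2, needed to make cytochrome b, changed by −1.10 in LOF and −1.01 in GOF. Acad9, a complex I assembly factor, rose by 0.78 in LOF and changed by −1.14 in GOF, and Ndufaf4, another, changed by −1.45 in LOF. Of 17 genes of the tricarboxylic acid cycle and pyruvate dehydrogenase, 7 were lower and 2 higher in LOF, and 7 lower and 1 higher in GOF. Ogdh, the E1 subunit of the oxoglutarate dehydrogenase complex, changed by −0.59 and −0.85 in LOF and GOF. Idh3a, the catalytic subunit of the NAD-dependent isocitrate dehydrogenase, changed by −0.71 in LOF, where Suclg2 rose by 0.79.

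Of 15 regulators of mitochondrial biogenesis, 6 were lower and 1 higher in LOF, beside 11.4% lower and 19.5% higher over all tested genes. Pprc1, a coactivator of the PGC-1 family, changed by −0.70, Nrf1 by −0.37 and Myc by −1.46, with Myc at 835 and 871 normalized counts in LOF libraries, against 2265 and 2423 in Krt14 libraries. In GOF 1 was lower, Tfb1m, which encodes a mitochondrial rRNA methyltransferase (−0.98), and 1 was higher, Myc (0.97), at 972 and 2335 in GOF libraries, against 799 and 737 in Inv libraries. Of 11 hypoxia targets, a list that bears on Ndufa4l2, 3 were higher and 3 lower in LOF, and 6 were higher and 0 lower in GOF, beside 6.87% higher and 8.4% lower over all tested genes in GOF. Pdk1, whose product inhibits pyruvate dehydrogenase, rose by 1.37 and the lactate dehydrogenase gene Ldha changed by −1.03 in LOF. Egln3, an oxygen-sensing prolyl hydroxylase, rose by 1.51 and the glucose transporter gene Slc2a1 by 1.54 in GOF. In LOF Slc2a1 changed by −0.69.

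Summed levels of some markers of other skin cells differed between groups. Their calls stand beside shares over all tested genes of 11.4% lower and 19.5% higher in LOF. In GOF the shares were 8.4% lower and 6.87% higher. The 6 fibroblast markers summed to 18817 and 19188 in LOF libraries, against 2673 and 1300 in Krt14 libraries at 6 weeks, of which Dcn made 17993 and 18053 in LOF libraries, while Col1a1 and Col3a1 stayed between 21 and 218 in these 4 libraries. Col1a2 had 647 and 1006 in LOF libraries, against 137 and 19. In the LOF comparison 2 of the 6 were higher and 0 lower. In GOF libraries the sum was 37656 and 14803, against 17944 and 19983 in Inv libraries, with 0 of 6 called. The 9 sebaceous markers summed to 37466 and 52446 in GOF libraries, against 134109 and 139407 in Inv libraries (8 of 9 lower), and to 21044 and 34947 in LOF libraries, against 9194 and 8358 in Krt14 libraries (5 of 9 higher). The 7 keratinocyte markers summed to 271801 and 234028 in LOF libraries, against 270351 and 296329 (2 of 7 higher and 2 lower), and to 237858 and 158676 in GOF libraries, against 198274 and 190991 (0 of 7 called). Melanocyte markers summed to 3043 and 2887 in LOF libraries, against 925 and 885 (6 of 7 higher), and to 1961 and 1768 in GOF libraries, against 2263 and 2392 (0 of 7 called). Adipocyte markers summed to 198 and 355 in GOF libraries, against 1165 and 1198 in Inv libraries. Most of this sum was 1 gene, Cidea, at 169 and 292 in GOF libraries, against 1090 and 1152 in Inv libraries. Endothelial markers summed to 300 and 1194 in GOF libraries, against 262 and 279 in Inv libraries. Elsewhere the adipocyte and endothelial sums, and in all libraries the skeletal muscle and leukocyte sums, did not exceed 810. The part of these cells in the changes of the respiratory chain genes was not tested.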

How the data were processed

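PolyA RNA from sorted cells was made into libraries with the Ovation Solo system, per the labels' protocols. Reads were aligned with STAR to GRCm38 (mm10) and counted with HTSeq, per the submitters' processing notes, with no versions given in the sources used here. As deposited, the values are a score: counts normalized by the authors and rounded to whole numbers, with nearly equal totals of 20011195 to 20014054. Of values above 0 and below 20000, 99.3% to 99.9% equalled a whole number of steps, 1 step size per library, rounded up, which gave the reads behind each library. Floors reflect counting error alone, since PCR reads that carry no molecular identifier need not be independent.

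Genes that reached 10 in 2 or more libraries were fitted as log2(value + 1) by limma 3.58.1 (R 4.3.3), with all 5 groups in 1 model (eBayes with trend, two-sided), with Benjamini-Hochberg adjustment within each comparison. With 2 libraries against 2, an exact permutation test cannot go below 0.333. Gene positions and principal transcript lengths came from GENCODE for GRCm38 (49412 IDs matched), and promoters from RefSeq (GRCm38.p6).

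The members and lists were chosen with earlier results of these data known. Genes named were isoform pairs, core catalytic subunits, X-linked members, the members with the highest and lowest means, up to 8 called members in each direction with the largest change and a mean of at least 50, and up to 3 called genes per other list. Others named, such as those lower in both comparisons, promoter examples and further members of a complex, were chosen after their values were seen. The values of 1 gene that met the rule for named genes are not reported here. The replicate numbers do not pair samples.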

Additional observations from a re-analysis of the deposited data

How the results depend on the processing

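Of 225 values of the 15 counts and medians under 12 kinds of alternative, 173 stayed within set limits of the reported value. For counts the limit was a fixed fold range, and a count of 0 had to stay 0. For medians it was the spread of library medians between replicates, such as 0.024 for LOF and 0.095 for GOF against Inv. A pseudocount of 5 gave a member median of −0.32 for LOF against Krt14 and 1 lower member for Krt14 at 8 against 6 weeks. Without a filter, 1 member was higher in LOF and 1 in GOF against Inv. A filter of 50 gave a LOF median of −0.35 and 1 lower member for 8 against 6 weeks, and robust eBayes also gave 1 there. Median-of-ratios rescaling gave 1 higher member and a median of −0.51 for LOF, 1 higher for GOF against Inv, 2 higher, 1 lower and a median of 0.10 for Krt14 against Inv, and 3 lower and −0.26 for 8 against 6 weeks. It shifted the median of all genes in LOF to 0.02, against 0.16 as deposited. Quantile normalization gave 1 higher and 3 lower for Krt14 against Inv. Fits to only the groups compared gave 1 higher for LOF, 0 higher and 0 lower for GOF against Inv and 8 lower for GOF against Krt14. With Xist as a covariate there were 1 higher, 0 lower and a median of −0.070 for LOF, 0, 0 and −0.038 for GOF against Inv, 0, 0 and 0.022 for GOF against Krt14, and 2 lower for 8 against 6 weeks. The same covariate reversed 9 of 36 named calls, none of which then passed: Cox7a2l (−0.51), Ndufs5 (0.14) and Ndufa1 (1.30) in LOF, Ndufv3 (−0.013) and Ndufs8 (0.25) in GOF against Inv, and Cox7a2l (−0.18), Cox6b2 (0.49), Ndufa11 (0.54) and Ndufs5 (0.25) in GOF against Krt14. No other alternative reversed a named call. The Xist slope rests on differences between replicates of a group and is extended to wider gaps between groups. Reversals in that fit are therefore not read as results about these genes. The cause of the other shifts was not tested. Leaving out 1 library at a time, with a lone library assumed to vary like the other groups, gave 1 to 2 higher, 14 to 22 lower and medians of −0.40 to −0.33 for LOF. It gave 1 to 3 higher, 5 to 29 lower and −0.38 to −0.23 for GOF against Inv. For Krt14 against Inv it gave 1 lower each time and medians of −0.096 to 0.047, and for GOF against Krt14 it gave 8 to 32 lower. Deviations of same-numbered replicates correlated between −0.05 and −0.01, so the numbers do not pair the samples. With a replicate block the lower members numbered 31 for LOF, 17 for GOF against Inv, 5 for Krt14 against Inv, 0 for 8 against 6 weeks and 29 for GOF against Krt14. Depth limits the low isoforms Cox4i2, Cox8b and Cox7a1, whose changes could not be resolved.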
